A study of Homo sapiens with 12 samples.

Results

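Venetoclax alone was set against its solvent in OCI-AML3 cells, using 6 of the 12 libraries of the series: 3 treated with ABT199 (venetoclax) and 3 treated with DMSO, all harvested at 24 h. OCI-AML3 is an established human acute myeloid leukaemia line, so every library comes from 1 line and there is no normal or second leukaemia background. The other 6 libraries received ERKi, an inhibitor of the kinase ERK, alone or together with ABT199 (labelled Comb), and they enter here for the spread between replicates and for a second look at the genes found. No drug concentrations are used here. All genes of the count table were eligible, and 15173 of 54628 gene symbols passed the filter on low counts.

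Venetoclax occupies the groove of BCL2 that binds the BH3 part of death-promoting relatives, and so frees those proteins to open the outer mitochondrial membrane. Type I interferons act through a receptor made of IFNAR1 and IFNAR2 and the kinases JAK1 and TYK2. The resulting complex, which holds STAT2 and IRF9, binds interferon-stimulated response elements in the promoters of antiviral genes. Several of its own parts, IRF9 among them, are also targets, as is IRF7, and many cells keep a basal level of these genes without added interferon.

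The 6 libraries held 20179886 to 21275065 counts each, with every DMSO library above every venetoclax library (exact permutation test, two-sided p = 0.1, the smallest that 3 against 3 allow). DMSO replicate 1 stood apart. The chi-square of its counts, divided by the degrees of freedom, was 16.3 and 15.4 when set against the other DMSO libraries and 2.26 to 5.11 in all other pairs of replicates of the series, and the first principal component of the 6 libraries (27.0% of the variance) set it against the other 5. Every pair differed by more than sampling noise. Blast markers, which the label AML calls for, summed to 2592 to 2640 CPM with DMSO and 2621 to 2648 with venetoclax. CPM is counts per 1000000, of the scaled library for single genes and of the unscaled library total for sums over markers. Of the 8 blast markers, KIT had at most a stray count. Another reached 40455 counts in a library, most of the sum there, against 166257 for all 8 over the 3 DMSO libraries. Of other cell types, T cell and red cell markers summed to at most 0.0976 and 0.0496 CPM in a library, B cell markers to at most 1.07 CPM and epithelial markers to at most 1.22 CPM. Endothelial markers summed to 11.2 to 12.2 CPM with DMSO and 12.5 to 14.7 CPM with venetoclax, nearly all of it PECAM1, which myeloid cells also express, with CDH5 at 0 counts. Fibroblast markers summed to 6.11 to 35.0 CPM with DMSO and 13.0 to 23.8 CPM with venetoclax. The part of these markers in the results was not tested.

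A gene was called when its Benjamini-Hochberg adjusted p over all 15173 genes, from edgeR's quasi-likelihood F test, was under 0.05. Venetoclax left most of the transcriptome within a narrow band and lowered a small set in which interferon-stimulated genes predominate: 58 genes fell (0.382% of those tested) and 3 rose (0.0198%). Of the 58 falls, 31 (53.4%) belong to 5 lists of interferon genes, of which 71 members were tested. Interferon genes here means members of these lists. The lists were chosen with earlier results of these data known, so shares over them are descriptions and not tests. The lists do not hold every interferon-inducible gene, so genes outside them may be interferon-inducible too. The other 27 falls include the p53 targets CDKN1A, BTG2 and TNFRSF10B, and the 3 rises were FOS, TSC22D3 and CCNB1. All 61 called genes had groups that did not overlap, which holds for 6.33% of all tested genes in the falling direction and 6.87% in the rising one. Falls of at least 2-fold numbered 14, of which 13 are on the interferon lists and the other is SIGLEC1. A further 19 lay between 1.5-fold and 2-fold, and 25 were smaller, down to a log2 fold change of -0.23. By type, 60 of the 61 are protein-coding. The counts moved with the libraries used: 17 rose and 81 fell without DMSO replicate 1, 1 rose and 42 fell without DMSO replicate 3, and 32 and 30 fell without venetoclax replicates 1 and 3. With only the 6 libraries in the fit 32 fell, 27 of them interferon genes, and 1 rose, DESeq2 on all 12 gave 72 and 12, and no filter gave 168 and 74.

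**Figure D1:**
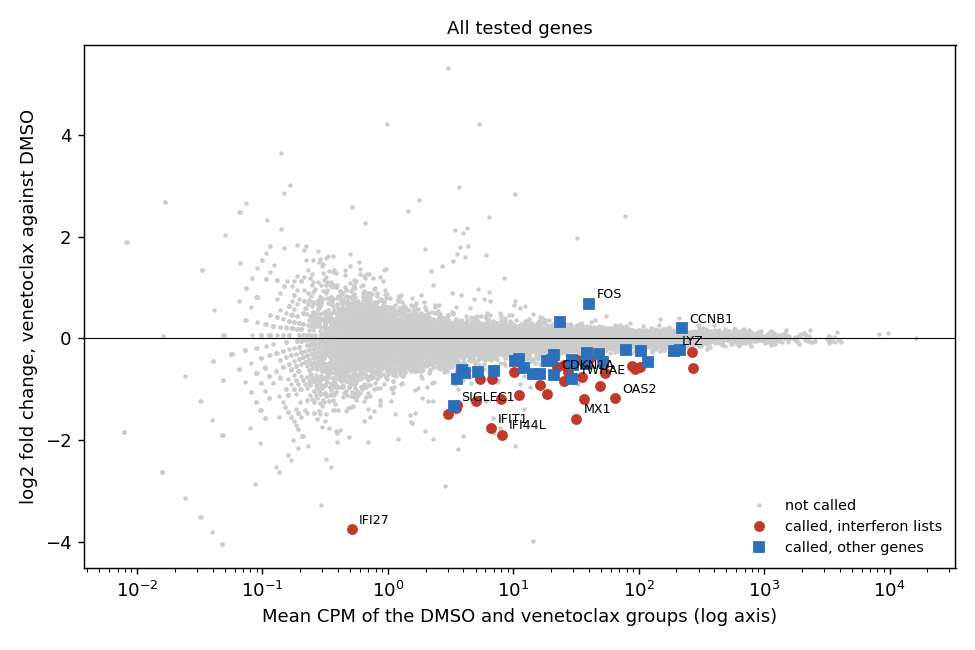
Log2 fold change of venetoclax against DMSO (y axis) over the mean level of both groups (x axis, CPM, log axis) for the 15173 genes tested. Grey points are genes not called, red circles the 31 called interferon genes and blue squares the other 30 called genes, and nearly all coloured points lie under the zero line.

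The 71 tested interferon genes had a median log2 fold change of -0.53, against 0.00 for all genes. Of the 71, 62 had a negative and 9 a positive value. In 46 the 3 venetoclax libraries lay below the 3 DMSO libraries, against 6.33% of all tested genes. At an unadjusted p under 0.05, 48 of the 71 were lower and 1 higher, against 773 lower and 609 higher among all 15173 genes. None of the 71 was called higher by edgeR, DESeq2 or limma-voom, and without DMSO replicate 1 the number of falls was 33. By role, the medians ran from -0.67 in the antiviral effectors to -0.11 in the receptors and signalling genes.

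The interferon genes themselves were next to silent. Over 10 ligand genes, from IFNA1 to the IFNL genes, there were 4 counts in the DMSO libraries together and 2 in the venetoclax libraries together. In 7 of the 10 no library had a count, so none was tested.

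Of 19 receptor and signalling genes, 4 fell and the median was -0.11. Among these were the transcription factors STAT2, IRF9 and IRF7. STAT2 was at 47.1, 44.4 and 44.9 CPM in DMSO replicates 1 to 3 and at 35.5, 33.5 and 34.6 CPM with venetoclax. Every venetoclax library was below every DMSO library, and the log2 fold change was -0.40 (SE 0.056, adjusted p = 0.00177 by edgeR).

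IRF9, the DNA-binding partner of STAT2, read 49.6, 42.0 and 40.3 CPM with DMSO and 26.4, 26.5 and 25.4 with venetoclax. The treated libraries were tightly grouped and the DMSO libraries were spread above them, at -0.75 on the log2 scale (SE 0.071, adjusted p = 1.98e-05 by edgeR). IRF7, which amplifies interferon production, was at 8.60, 7.16 and 5.60 CPM with DMSO and at 3.05, 3.45 and 2.66 CPM with venetoclax. Its groups were apart too, at -1.22 (SE 0.206, adjusted p = 0.00967 by edgeR), but the call was lost without venetoclax replicate 1 (adjusted p = 0.0632) or 3 (0.0777).

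The receptor chains and kinases that stand upstream gave no call. IFNAR1 was at 0.04 (95% interval -0.05 to 0.14), IFNAR2 at -0.03 (-0.13 to 0.07) and JAK1 at -0.01 (-0.09 to 0.08). All 3 intervals exclude a change of the size seen in STAT2. TYK2 was at -0.15 (unadjusted p = 0.042), with DMSO replicate 1 at 143 CPM and the other 5 libraries between 112 and 116. IRF1 (-0.09), IRF3 (0.02) and IRF8 (0.00), factors that can act apart from STAT2 and IRF9, were not called either.

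Antiviral effectors were the list with the most falls, 17 of 29 tested members, and all 29 had a negative log2 fold change (median -0.67). At an unadjusted p under 0.05, 26 were lower. MX1, a GTPase that traps viral nucleocapsids, lies at chr21:41420558-41459214 (GRCh38.p14). It read 51.0, 46.4 and 44.9 CPM with DMSO and 15.9, 16.3 and 15.5 CPM with venetoclax. The treated level was 33.6% of the DMSO level, and MX1 had the smallest adjusted p of all genes.

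IFI44L, an interferon-induced protein gene on chromosome 1, was at 12.1, 13.7 and 12.6 CPM with DMSO and at 3.24, 4.11 and 3.01 CPM with venetoclax. This was the largest fall among called genes with a mean of at least 1 CPM (log2 fold change -1.89, SE 0.195, adjusted p = 5.6e-05 by edgeR). IFIT1, which binds viral RNA that lacks the cap methylation of host messages, was at 10.7, 10.6 and 9.39 CPM and then at 3.29, 3.09 and 2.66 CPM. Both genes kept clear gaps between the groups, at -1.76 (SE 0.271, adjusted p = 0.00416 by edgeR) for IFIT1.

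The neighbours and relatives of these genes moved with them. IFIT2 (-1.48) and IFIT3 (-1.10) lie on chromosome 10 with IFIT1, and IFI44 (-1.31) lies 3.64 kb from IFI44L. IFI44 lost its call without any 1 of 5 libraries (adjusted p = 0.0569 to 0.203), DMSO replicate 1 being the exception, and when only the 6 libraries were fitted (0.0963). SAMD9L (-0.93), IFI6 (-0.91), XAF1 (-0.67), TRIM22 (-0.59) and EIF2AK2 (-0.53), the last encoding the RNA-activated kinase PKR, were called under every setting tried. RSAD2 (-0.81) encodes viperin, which makes a chain-terminating nucleotide from CTP. CMPK2 (-0.66), a mitochondrial nucleotide kinase gene, overlaps it in the annotation, so without a stated strand setting some reads of this pair may be shared.

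IFI27 had the largest fall of any called gene but few counts, 61 in the DMSO libraries together and 4 in the venetoclax libraries together. That is 6.88% of the DMSO level after scaling (exact 95% interval 1.82% to 18.5%, counting error only). Its call was lost when any 1 library other than DMSO replicate 1 was left out (adjusted p = 0.0666 to 0.221). SLFN5 (-0.79), HELZ2 (-0.43) and IFI16 (-0.27) were also called. SLFN5 lost its call without DMSO replicate 3 or venetoclax replicate 1 or 3 (adjusted p = 0.0706, 0.09 and 0.0716), IFI16 without any 1 library but DMSO replicate 1 (0.0582 to 0.26), and HELZ2 without any 1 but DMSO replicate 2 (0.0578 to 0.309). A fit of only the 6 libraries ended all 3 calls as well (0.124, 0.171 and 0.178 for SLFN5, IFI16 and HELZ2).

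Effectors that missed the threshold pointed the same way at unequal size. IFITM1 was at -1.42, OASL at -1.23 and IFITM3 at -0.73 (adjusted p = 0.16, 0.16 and 0.087 by edgeR), and IFITM3 was called by DESeq2 and limma-voom. MX2, the close relative of MX1, was at -0.14 (95% interval -0.25 to -0.04), a difference from DMSO far smaller than that of MX1. BST2, the tetherin gene, was at -0.13 (-0.26 to 0.01) and ZC3HAV1 at -0.01 (-0.10 to 0.09).

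**Figure D2:**
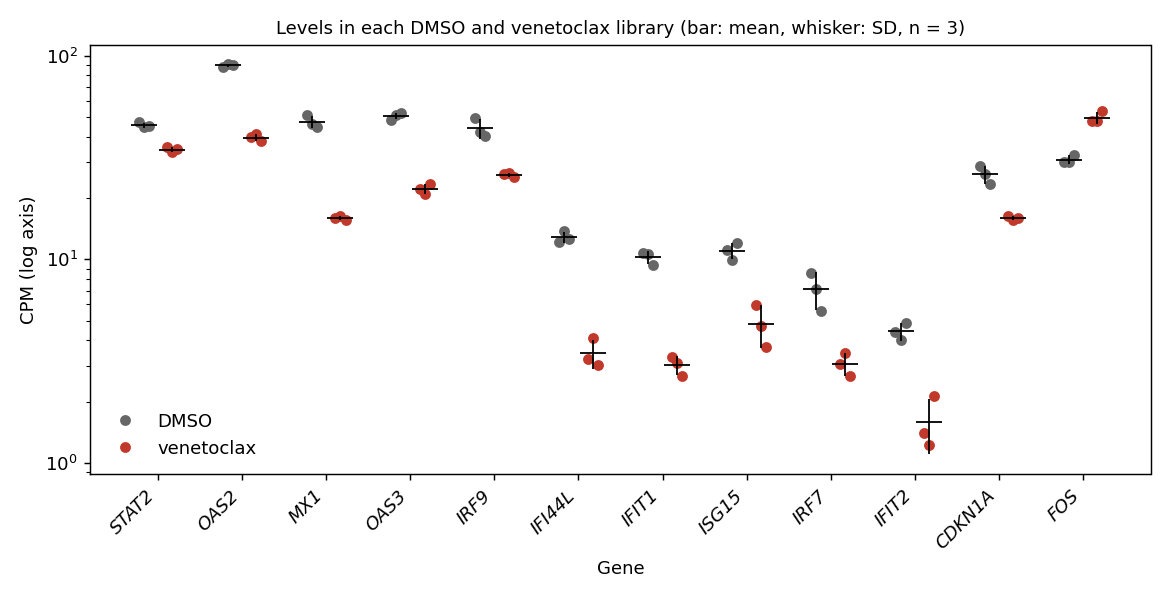
Levels (y axis, CPM, log axis) of 12 named genes (x axis) in each of the 3 DMSO libraries (grey) and 3 venetoclax libraries (red), with the mean as a bar and the SD as a whisker. In the 11 genes from STAT2 to CDKN1A all red points lie below all grey points, and in FOS all lie above.

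Among sensors of foreign nucleic acid, 4 of 9 tested members fell (median -0.56). OAS2, one of the enzymes that make the 2′-5′ oligoadenylates that switch on RNase L, was at 88.4, 90.9 and 89.7 CPM with DMSO and at 39.8, 41.1 and 38 CPM with venetoclax. The 3 libraries of each group differed by little, and the log2 fold change was -1.18 (SE 0.071, adjusted p = 1.24e-07 by edgeR). OAS3 (-1.19, SE 0.083) and OAS1 (-1.08, SE 0.122), its neighbours on chromosome 12, fell by much the same amount. DDX58, the gene of the RNA sensor RIG-I, was at -0.56 (SE 0.080, adjusted p = 0.00197 by edgeR). DHX58 was at -0.66 and IFIH1, the MDA5 gene, at -0.36 (adjusted p = 0.051 and 0.12 by edgeR). MAVS, the adaptor of RIG-I and MDA5, was at -0.03 and was not called. The DNA-sensing genes CGAS (0.14) and STING1 (-0.11) were not called either.

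Of 14 genes of the ubiquitin-like and proteasome list, 6 fell (median -0.59). ISG15, the ubiquitin-like protein that is attached to new proteins in the interferon response, was at 11.1, 9.94 and 12 CPM with DMSO and at 5.99, 4.72 and 3.70 with venetoclax. The groups were apart at -1.20 (SE 0.224, adjusted p = 0.0219 by edgeR), but the call was lost without DMSO replicate 3 (0.0882) or venetoclax replicate 2 (0.109) or 3 (0.148). Its conjugating enzyme gene UBE2L6 (-0.51) and the deconjugating enzyme gene USP18 (-0.66) fell as well. UBE2L6 lost its call without venetoclax replicate 1 or 3 (adjusted p = 0.242 and 0.197) or in a fit of only the 6 libraries (0.255), and USP18 without any 1 library but DMSO replicate 1 (0.0777 to 0.14). The ADP-ribosyltransferase genes PARP12 (-1.36), PARP9 (-0.83) and PARP14 (-0.57) fell and kept their calls under every setting tried. DTX3L, whose protein pairs with PARP9, was at -0.27 (adjusted p = 0.25 by edgeR), and at -0.37 without DMSO replicate 1 (adjusted p = 0.000443).

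PSMB8 and PSMB9, immunoproteasome genes that sit together in the HLA region, did not behave as replicates. PSMB8 was at 13.6 CPM in DMSO replicate 1 and under 1 CPM in the other 5 libraries. PSMB9 was at 16.4 and 13.5 CPM in venetoclax replicates 2 and 3 and under 1 CPM in the rest. Their fold changes (-2.90 and 4.21, not called) therefore rest on 1 and 2 libraries. The proteasome activator genes PSME1 and PSME2 were at 0.01 and -0.08. Of 12 tested HLA and antigen presentation genes none was called by edgeR, DESeq2 or limma-voom, with 3 lower and 0 higher at an unadjusted p under 0.05, among them HLA-B (-0.21) and NLRC5 (-0.19), a regulator of this class of genes.

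**Figure D3:**
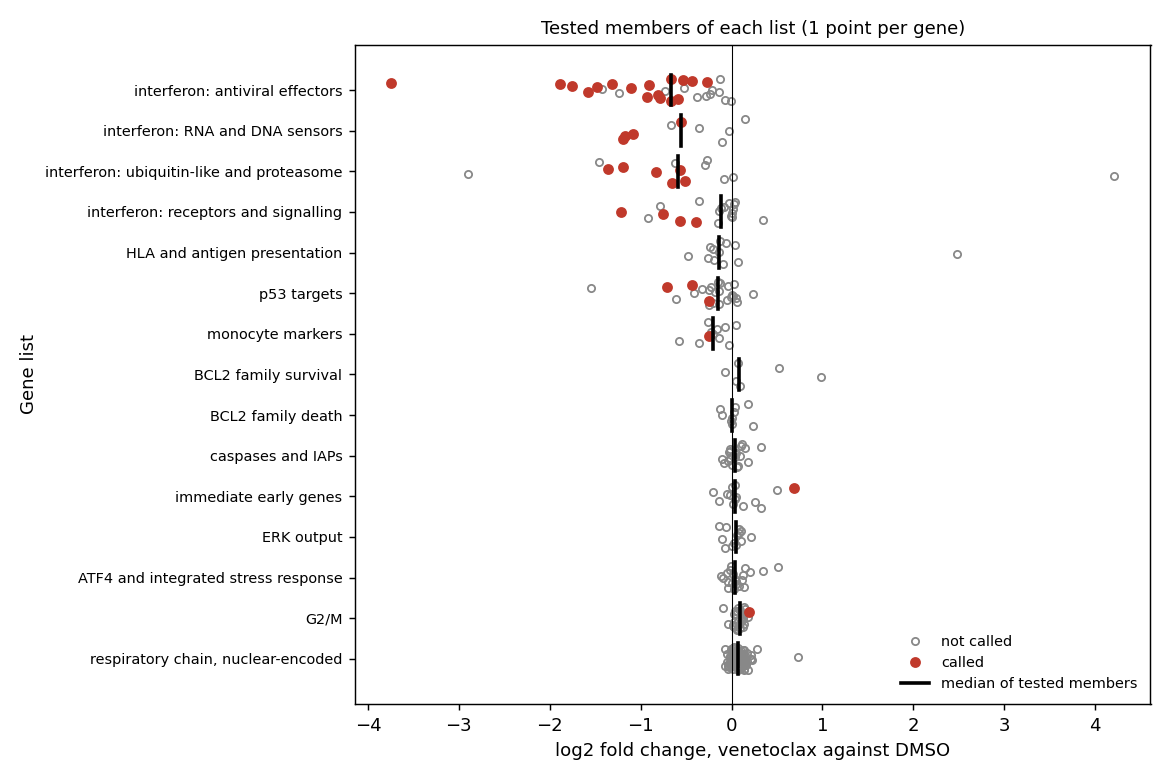
Log2 fold change of venetoclax against DMSO (x axis) for each tested member of 15 gene lists (y axis), with called genes filled and the list median as a black bar. The interferon effector, sensor and ubiquitin-like lists have medians from -0.67 to -0.56, and the other lists have medians between -0.20 and 0.09.

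The promoters of the falling genes were read for the response element, here GAAA, any 2 bases and GAAA again, on either strand. The windows run from 250 bases before to 50 after each start in RefSeq (GRCh38.p14), and a gene counts once if any of its windows holds a match. A window was given for 42 of the 58 falling genes, and 18 of these (42.9%) held a match, against 4.22% of 11154 tested genes with a window and 3.57% of all 35116 windows. The share was 14 of 24 (58.3%) for falling interferon genes, 4 of 18 (22.2%) for the other falling genes and 9 of 10 (90.0%) for falls of at least 2-fold. In interferon genes that were tested and not called it was 17 of 31 (54.8%). The shorter core GAAANNGAA was in 22 of 42 (52.4%) falling genes and 9.16% of tested genes, and every match of the longer element contains it. The gamma-activated sequence TTCNNNGAA was in 7 of 42 (16.7%) and 8.61%. None of the 3 rising genes held the longer element in a window.

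Matched stretches are shown from 6 picked genes that fell, each with at least 2 copies of the element upstream of the start. IFI27, DDX60 and PATL2 also fell and hold 2 upstream copies in a window, and are not shown. Each runs 5′ to 3′ on the strand of its gene with the matches in capitals, and where TTTC leads a match the element is on the opposite strand. The stretches lie at chr1:78620269-78620399 (IFI44L, plus strand), chr10:89392492-89392544 (IFIT1, plus), chr1:1013369-1013414 (ISG15, plus), chr12:112938316-112938473 (OAS3, plus), chr10:89327826-89327899 (IFIT3, plus) and chr1:27672261-27672363 (IFI6, minus).
IFI44L: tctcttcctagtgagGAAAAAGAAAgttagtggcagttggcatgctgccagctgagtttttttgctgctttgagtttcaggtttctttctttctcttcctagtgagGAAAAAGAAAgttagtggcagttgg
IFIT1: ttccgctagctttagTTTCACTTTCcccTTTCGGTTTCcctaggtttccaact
ISG15: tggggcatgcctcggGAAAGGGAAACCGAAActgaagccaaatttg
OAS3: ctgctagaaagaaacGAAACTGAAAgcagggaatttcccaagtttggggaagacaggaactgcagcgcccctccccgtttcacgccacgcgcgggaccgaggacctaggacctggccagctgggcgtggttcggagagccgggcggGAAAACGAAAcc
IFIT3: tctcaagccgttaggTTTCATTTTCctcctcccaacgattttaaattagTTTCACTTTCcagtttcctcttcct
IFI6: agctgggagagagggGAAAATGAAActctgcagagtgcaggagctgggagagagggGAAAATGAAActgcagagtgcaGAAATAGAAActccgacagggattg

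In ISG15 the matches overlap and share a GAAA, in IFIT1 they are 3 bases apart, and in IFI44L a longer stretch that holds the element occurs in 2 copies. A match is a description of these letters and not evidence of binding in these cells.

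Outside the interferon lists, 27 genes fell by a median of -0.47, against -0.83 for the 31 genes on them. The split is by list only, and some of the 27 may be interferon-inducible too. SIGLEC1, a sialic acid-binding receptor gene of macrophages, was at 4.59, 3.96 and 5.83 CPM with DMSO and at 2.30, 2.03 and 1.38 with venetoclax. Its groups were apart at -1.33 (SE 0.237, adjusted p = 0.0138 by edgeR), but the call was lost without DMSO replicate 3 (0.0882) or venetoclax replicate 2 (0.0512) or 3 (0.102), or in a fit of only the 6 libraries (0.0604). DDX60 (-0.69), a helicase gene, and SP110 (-0.46), a nuclear body gene, kept their calls under every setting tried and hold, in the case of DDX60, 2 copies of the element. Both were named after their values were seen.

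Of 25 tested p53 targets, 3 fell and none rose, with a median of -0.15. CDKN1A, the gene of the cell cycle inhibitor p21, was at 28.6, 26.3 and 23.4 CPM with DMSO and at 16.4, 15.5 and 15.9 CPM with venetoclax, 61.0% of the DMSO level. It kept its call under every setting tried. BTG2 (-0.43), an antiproliferative gene, was at 24.3, 23.4 and 23.0 CPM and then 16.5, 17.3 and 18.5 CPM, and with venetoclax replicate 1 left out, or in a fit of only the 6 libraries, it was not called (adjusted p = 0.0573 and 0.0963).

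TNFRSF10B (-0.25), which encodes the TRAIL receptor DR5, read 112 to 116 CPM with DMSO and 95 to 97.2 with venetoclax. Its call was lost without DMSO replicate 3 or venetoclax replicate 1 or 3 (adjusted p = 0.0691, 0.0822 and 0.0777) and in a fit of only the 6 libraries (0.221). Over all 25 members, the 3 called included, 13 were lower and 1 higher at an unadjusted p under 0.05. Among all 15173 genes 773 were lower and 609 higher. In 10 members all venetoclax libraries lay below all DMSO libraries, against 6.33% of all tested genes. EDA2R was at -1.54 (adjusted p = 0.059 by edgeR), from 0.966 to 1.14 CPM to 0.345 to 0.399 CPM. The 1 member with a positive value at that level was PMAIP1, the gene of the BH3 protein NOXA, at 0.24 (95% interval 0.05 to 0.42). Without DMSO replicate 1 the count of falls was 5, with ZMAT3 (-0.40) and MDM2 (-0.20) added.

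FOS, an immediate early gene of the AP-1 family, was at 30.1, 30.1 and 32.6 CPM with DMSO and at 48.0, 47.7 and 53.5 CPM with venetoclax. It was the largest of the 3 rises, 1.61-fold, and the only one called under every setting tried (log2 fold change 0.69, SE 0.060, adjusted p = 7.14e-06 by edgeR). The other 13 tested immediate early genes were not called. FOSB was at 0.50 and KLF2 at 0.26 (adjusted p = 0.52 and 0.47 by edgeR), and the list median was 0.04. DUSP6, a target and brake of ERK, was at 0.10 (95% interval -0.18 to 0.38). Of 13 tested genes of ERK output, none was called by edgeR, DESeq2 or limma-voom, with 0 lower and 1 higher at an unadjusted p under 0.05 (IL1B, 0.21).

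CCNB1, the cyclin B1 gene that drives entry into mitosis, was at 205, 206 and 210.3 CPM with DMSO and at 238, 243 and 231 CPM with venetoclax. The groups were apart by a small step, 1.14-fold (log2 fold change 0.19, SE 0.041, adjusted p = 0.0493 by edgeR). TSC22D3, the glucocorticoid-induced leucine zipper gene, was at 22.9, 19.7 and 19.8 CPM and then at 26.4, 26.1 and 26.0 CPM, 1.26-fold higher. Both calls were lost when any 1 library other than DMSO replicate 1 was left out (adjusted p = 0.108 to 0.308 for CCNB1, 0.147 to 0.24 for TSC22D3) and in a fit of only the 6 libraries (0.384 and 0.361). Of 31 G2/M genes, 29 had a positive value (median 0.09). In 12 the venetoclax libraries all lay above DMSO, against 6.87% of all tested genes. At an unadjusted p under 0.05, 9 of the 31 were higher, against 609 of all 15173 genes. The CPM of several of the 31 was lowest in DMSO replicate 1. TOP2A was at 774 CPM there, against 925 and 937 in the other DMSO libraries and 936 to 976 with venetoclax.

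Markers of monocytes, the lineage that OCI-AML3 cells resemble in part, summed to 602 to 622 CPM with DMSO and 543 to 552 CPM with venetoclax. Of 11 tested, 1 fell and 10 had a negative value (median -0.20, and -0.08 without DMSO replicate 1). That 1 was LYZ, the lysozyme gene, at 196, 214 and 216 CPM with DMSO and 179, 173 and 177 with venetoclax. The groups did not overlap, at -0.24 (SE 0.044, adjusted p = 0.0145 by edgeR), and the call was lost without any 1 library but DMSO replicate 1 (0.0666 to 0.154) and in a fit of only the 6 libraries (0.329). Without DMSO replicate 1, S100A8 was called too (-0.77). In bulk RNA, fewer cells of a type and less RNA per cell cannot be told apart, and the part of these markers in the other falls was not tested.

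The BCL2 family, which holds the drug target, and the caspase and inhibitor of apoptosis genes gave no call by edgeR. The death receptor gene TNFRSF10B, which fell, is given above with the p53 targets. BCL2 was at 280, 342 and 339 CPM with DMSO and at 338, 337 and 334 CPM with venetoclax. Only DMSO replicate 1 lay off the common level, and the log2 fold change was 0.07 (95% interval -0.05 to 0.19). MCL1, the relative that can stand in for BCL2, was at 472, 527 and 513 CPM and then at 537, 538 and 532 CPM, a difference of 0.09 (-0.00 to 0.18). BCL2L1 was at -0.07 (-0.26 to 0.12).

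In the BCL2 family 6 survival and 9 death genes were tested, and none was called by edgeR, DESeq2 or limma-voom. At an unadjusted p under 0.05 there were 0 survival genes, and 2 death genes, BCL2L11 (-0.10) and PMAIP1. BAX was at -0.13 (-0.28 to 0.02), BBC3 at 0.02 (-0.19 to 0.23) and BAK1 at 0.04 (-0.10 to 0.17). Among 19 caspase and inhibitor of apoptosis genes none was called by edgeR or limma-voom and 2 were higher at an unadjusted p under 0.05, CYCS (0.18) and BIRC5 (0.15). DESeq2 called CYCS, the cytochrome c gene.

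**Figure D4:**
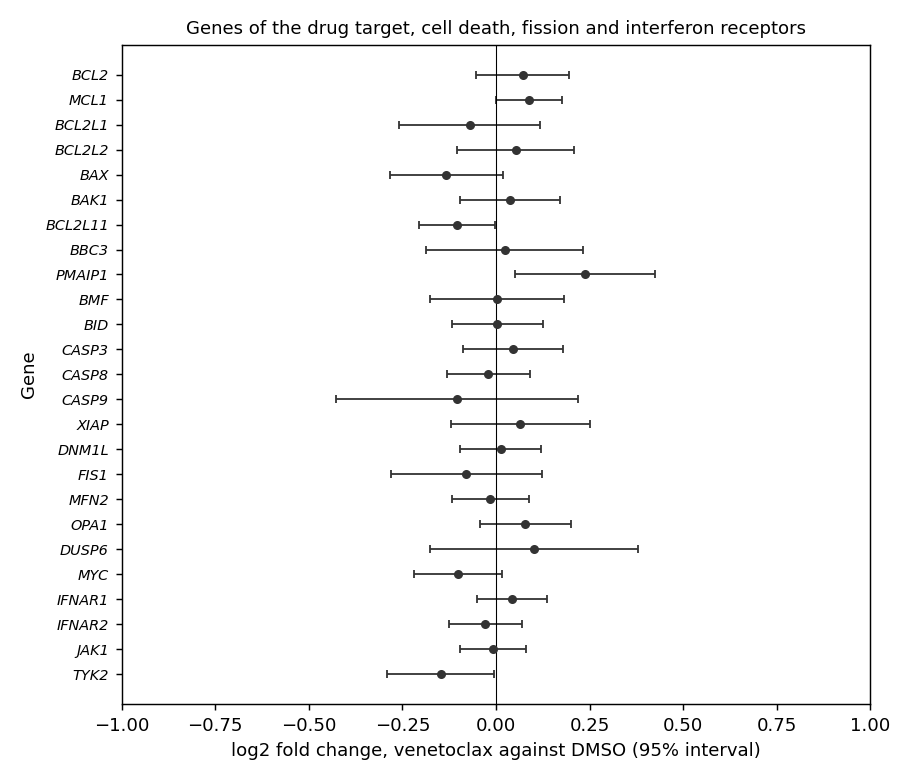
Log2 fold change of venetoclax against DMSO with its 95% interval (x axis) for 25 genes that were not called (y axis): BCL2 family members, caspases, mitochondrial fission and fusion genes, ERK targets and interferon receptor genes. All intervals lie within 0.5 of zero. That of PMAIP1 lies above zero, and those of BCL2L11 and TYK2 lie below it.

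Mitochondrial genes leaned upwards by small amounts. Of 72 nuclear-encoded respiratory chain genes, 58 had a positive value (median 0.07). In 19 (26.4%) the venetoclax libraries lay above all DMSO libraries, against 6.87% of all tested genes. By edgeR, DESeq2 and limma-voom 0 of the 72 were called. At an unadjusted p under 0.05, 14 of the 72 were higher and 0 lower, against 609 and 773 of all 15173 genes. NDUFAB1, an accessory subunit of complex I, was at 62.0, 61.5 and 63.4 CPM and then at 74.1, 71.6 and 71.9 CPM (log2 fold change 0.22, 95% interval 0.10 to 0.34, adjusted p = 0.19 by edgeR). UQCRH, of complex III, was at 0.13, and at 0.16 without DMSO replicate 1, where it was called (adjusted p = 0.0277).

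Of the 13 mitochondrially encoded genes 12 had a positive value (median 0.10), with 0 called by all 3 tools and 2 higher at an unadjusted p under 0.05, ND4L (0.39) and ND3 (0.27). The share of counts from the mitochondrial genome was 3.88% ± 0.225 with DMSO and 4.06% ± 0.101 with venetoclax (SD, n = 3, exact permutation test, two-sided p = 0.3). DNM1L, which encodes the fission GTPase Drp1, was at 0.01 (95% interval -0.10 to 0.12). Among 21 tested fission and fusion genes none was called by any of the 3 tools, and 2 were higher at an unadjusted p under 0.05, MFN1 (0.18) and MTFR2 (0.16).

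The remaining lists were quiet. Of 21 tested genes of the ATF4 stress response none was called by the 3 tools, with 3 higher at an unadjusted p under 0.05, although ATF4 itself was called without DMSO replicate 1 (log2 fold change 0.23 there and 0.15 with all libraries). The same 3 tools called 0 of 26 G1/S, 15 NF-kB and 20 cholesterol synthesis genes, with 3, 1 and 0 higher and 0, 0 and 1 lower at an unadjusted p under 0.05. CXCL11 and CCL5, the 2 tested of 5 interferon-inducible chemokine genes, were at about 1 to 3 CPM or below, with intervals that span zero.

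How far the data could show a change depends on the level of a gene. The 95% interval of the log2 fold change lay within 0.5 of zero for 66.2% of tested genes. Its median half-width was 0.143 in the 9007 genes with a mean of at least 10 CPM and 0.981 in the 2601 genes under 1 CPM. A change of 1.5-fold in a gene under 1 CPM was thus often not detectable at this depth.

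The combination against ERKi asks what the same drug does in 6 other libraries, which share none with venetoclax against DMSO. In that comparison 24.3% of all tested genes were lower and 26.5% higher, so a call there is common. Of the 58 genes that fell with venetoclax alone, 35 were lower on top of ERKi, 8 were higher and 15 were not called. For the 31 genes on the interferon lists these counts were 24, 1 and 6, with a median of -0.66. For the other 27 they were 11, 7 and 9, with a median of -0.12. The difference between both comparisons, the interaction, was called for 42 of the 61 genes, against 39.2% of all tested genes. The interaction contains the comparison by which the 61 were chosen, so these shares cannot be set against each other directly.

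OAS2 and PARP14 had close values in both, -1.18 and -1.06 for OAS2 and -0.57 and -0.53 for PARP14. Neither interaction was called (0.12, adjusted p = 0.49, and 0.04, adjusted p = 0.75, by edgeR). MX1 was at 2.73 to 3.51 CPM with ERKi and 1.78 to 2.11 with the combination, and its difference of -0.62 was smaller in size than the -1.57 seen without ERKi (interaction 0.95, adjusted p = 0.000332 by edgeR). CMPK2 was the 1 interferon gene that went the other way, from 20.2 to 21.8 CPM with ERKi to 28 to 32 CPM with the combination (0.50, interaction 1.17).

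CDKN1A and BTG2 fell further on top of ERKi than alone. CDKN1A was at 45.3 to 49.1 CPM with ERKi and at 10.4 to 12.5 with the combination, a log2 fold change of -2.07 against -0.71 alone (interaction -1.35, adjusted p = 6.6e-07 by edgeR). BTG2 was at -1.30 against -0.43 (interaction -0.87). LYZ turned round: 2361 to 2513 CPM with ERKi and 3855 to 4076 with the combination, a rise of 0.71 against the fall of 0.24 alone. FOS and CCNB1 rose in both settings, FOS by 0.39 on top of ERKi and CCNB1 by 0.84, and TSC22D3 fell by 0.57 on top of ERKi.

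**Figure D5:**
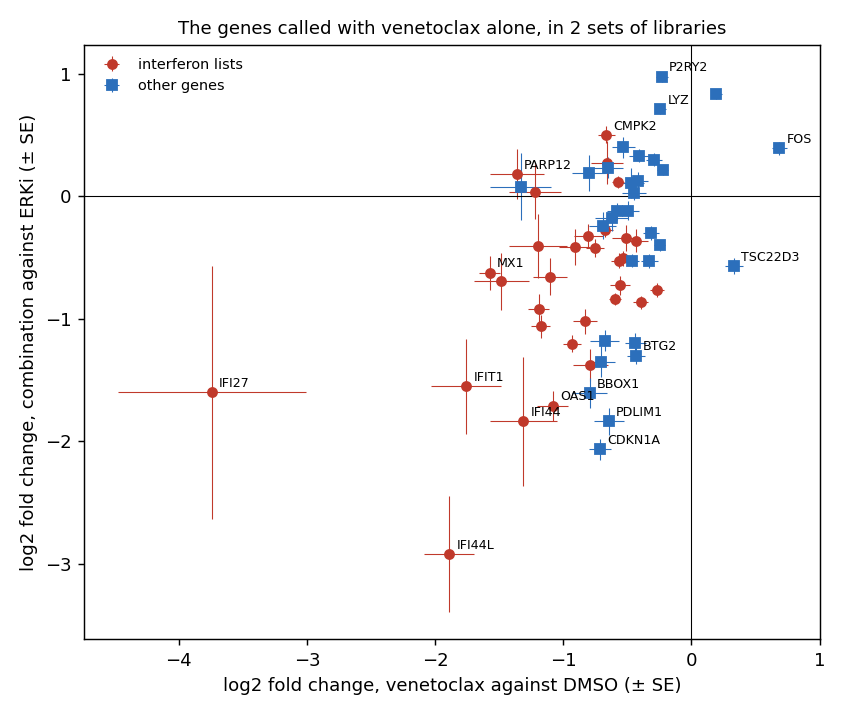
Log2 fold change of venetoclax against DMSO (x axis) and of the combination against ERKi (y axis) for the 61 called genes, each ± SE, with interferon genes in red and the others in blue. Of the 58 genes left of zero, 41 lie below zero on the y axis as well, and CMPK2, LYZ and P2RY2 lie above it.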

How the data were processed

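Poly(A) RNA of 12 OCI-AML3 libraries (4 groups of 3) was sequenced as paired ends. The deposited table holds raw read counts per gene symbol. Per the submitters' processing notes the build was hg38 and the tools were HISAT2, HTSeq and DESeq2, and neither the annotation nor the strand setting is given in the sources used here. No label says that replicates are separate cultures, so each p-value rests on the spread of these samples only, and that spread may be technical.

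Here the counts were fitted with edgeR 4.0.16 (R 4.3.3), with TMM scaling, filterByExpr (minimum count 10, total 15) and a prior count of 0.125. A model with a term per group covered all 12 libraries (8 residual degrees of freedom). The contrast of venetoclax minus DMSO was tested by quasi-likelihood F tests, adjusted after Benjamini and Hochberg over all 15173 genes. TMM assumes that most genes are stable and cannot see a change common to all. SE is the size of the log2 fold change over the root of F, and intervals cover 95%. The script was tested on simulated counts.

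The 30 gene lists and the comparison were chosen with earlier results of these data known. Named genes were called list members, the 12 largest falls and rises with a mean CPM of at least 1, the 10 smallest adjusted p, 17 fixed genes and 2 members of each list with no call. A few genes that this rule takes are left out here. Others were named after their values were seen. Of the symbols, 52040 matched RefSeq, which gave positions, and 45 of the 61 called genes had a promoter entry. Alternatives were RLE factors, DESeq2 1.42.0, limma-voom (limma 3.58.1), other filters, other library sizes, only the 6 libraries, a replicate block and each library left out in turn. List counts without DMSO replicate 1 were added after seeing the data.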

Additional observations from a re-analysis of the deposited data

Results flagged for a closer look

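In 15 genes called with venetoclax alone, the effect of the drug differed between cells without and with ERKi by the interaction term (log2, edgeR, adjusted p under 0.05), a call that 39.2% of all tested genes share. They are the 9 genes called in opposite directions in both comparisons and 6 among the 10 smallest adjusted p whose interaction was called, and genes outside the rule for named genes were named here after their values were seen. A positive value means a higher log2 fold change on top of ERKi. The interaction term contains the comparison by which these genes were called.

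Of the 9 that turned round, CMPK2 (1.17), ODF3B (0.89), LGALS9 (0.93), MS4A6A (0.74), NADSYN1 (0.59), LYZ (0.96), P2RY2 (1.21) and CA2 (0.44) fell with venetoclax alone and rose on top of ERKi. TSC22D3 (-0.90) rose alone and fell on top of ERKi. P2RY2, a nucleotide receptor gene, was at 84.5 to 89.0 CPM with DMSO, 72.9 to 73.8 with venetoclax, 132 to 141 with ERKi and 266 to 273 with the combination. CA2, a carbonic anhydrase gene, was at -0.23 alone and 0.21 on top of ERKi, and LGALS9, the galectin-9 gene, at -0.53 and 0.40.

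Among the genes with the smallest adjusted p, MX1 (0.95), IRF9 (0.33) and XAF1 (0.40) fell by less on top of ERKi than alone. SAMD9L (-0.27) and TRIM22 (-0.24) fell by more on top of ERKi than alone, and FOS (-0.29) rose by less.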

How the results depend on the processing

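All 61 called genes kept their direction under the 15 alternatives, and 23 kept their call under every one, of which 19 are interferon genes. The counts of genes higher and lower were 3 and 58. They were 12 and 72 by DESeq2 (59 of the 61 calls kept), 74 and 168 without a filter (60 kept), and 1 and 32 with only the 6 libraries (32 kept). Scaling without mitochondrial and non-polyadenylated RNAs gave 1 and 58. The fit with the replicate block gave 1 and 47 (47 kept), and 1 and 28 with the block in only the 6 libraries, where DDX58, STAT2, RSAD2, BTG2, TNFRSF10B and LYZ lost their calls too (adjusted p = 0.117, 0.103, 0.0779, 0.209, 0.548 and 0.581). The replicate numbers were not taken as pairs, since deviations of same-numbered libraries correlated at 0.02 to 0.06, although every library correlated best with its own number. Leaving out 1 library gave 1 (DMSO replicate 3) to 17 (DMSO replicate 1) genes higher and 30 (venetoclax replicate 3) to 81 (DMSO replicate 1) lower, with 32 lower without venetoclax replicate 1. The causes of these moves were not tested. Interferon genes lower numbered 31, from 22 to 41 under the alternatives, and interferon genes higher numbered 0, 1 without a filter and 0 to 1 with 1 library left out (PSMB9 in both, without venetoclax replicate 1 in the latter). Of 1221 values of named genes under alternatives, 95 lost and 4 gained a call, and 0 changed direction among called genes. Low counts limit IFI27 and genes under 1 CPM most.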

Other observations

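Leaving out DMSO replicate 1, the library that stood apart, kept 57 of the 61 calls and added 41 others, 27 lower and 14 higher. The 4 calls lost were PATL2, NAPSB, MS4A6A and HELZ2. Of the added falls only IFIH1, DTX3L and SAMD9 are on the interferon lists, but several others are known as interferon-inducible genes from outside them: ADAR, the RNA-editing enzyme gene (-0.26), TRIM25, which activates RIG-I (-0.27), DDX60L (-0.34), ZNFX1 (-0.22) and SAMHD1 (-0.13). The largest added fall was S100A8 (-0.77), a calcium-binding protein gene of monocytes, at 2.32 CPM in DMSO replicate 1 and at 4.14 and 3.37 in the others, against 1.97 to 2.59 with venetoclax.

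The added rises were small apart from TSNAXIP1, which had under 1 CPM in all 6 libraries. They included the chaperone genes HSP90AA1 (0.12) and FKBP4 (0.16), the proteasome subunit gene PSMA7 (0.22), the superoxide dismutase gene SOD1 (0.21) and ATF4 (0.23). ATF4 was at 556 CPM in DMSO replicate 1, 466 and 476 CPM in the other DMSO libraries and 549 to 556 CPM with venetoclax. In 13 of the 14 added rises DMSO replicate 1 was above both other DMSO libraries. All these genes were named after their values were seen.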
